A study of Caenorhabditis elegans with 2 samples.

Results

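Chromatin immunoprecipitation with sequencing (ChIP-seq), which recovers and sequences the DNA held by a tagged protein, gave 595 autosomal regions outside protein-coding promoters among the strongest regions of SOX-4-eGFP in Caenorhabditis elegans embryos. They were chosen by the signal value of the list called on both libraries pooled, at 100 or more. The list, called to hold both peaks and background, had 30000 regions, of which 1507 reached that minimum, 1158 of them on the autosomes. The summit, the strongest base of a region, also had to lie off the X chromosome and outside the window from 500 bp upstream to 100 bp downstream of every protein-coding gene's 5′ end. It had to be more than 200 bp from any tRNA, snRNA, snoRNA, rRNA or miRNA gene. These position rules removed 346 autosomal promoter regions and 217 regions near such an RNA gene. A further 20913 autosomal regions passed the position rules with a signal under 100 and are called the weaker distal regions here. The chosen regions are thus 2.77% of all pooled regions that passed the position rules, a share fixed by the choice. The 3 weakest had signals of 100.018, 100.02 and 100.033, and the 3 strongest of those left out had 99.938, 99.9187 and 99.8746. Of the 595 regions, 155 overlapped the shorter list of 668 regions that the authors thresholded, and 440 did not.

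The study had 1 group, whole late embryos of both sexes from strain OP517, collected 4 hours after synchronization by bleaching of eggs. The worms carry the allele unc-119(tm4063) on chromosome III and the transgene wgIs517, which makes SOX-4 fused at its C-terminal end to GFP and FLAG. An antibody against GFP was used on sonicated chromatin from 2 biological replicates, although one label names sox-4 as the antibody's target. No untagged worm and no other stage was compared, so there is no test between groups and no control list for these regions. Whole embryos mix all tissues, so binding in few cells and weak binding in many cells cannot be told apart. The lists hold no read counts, and the depth of the libraries is therefore unknown. No value below carries a p-value, because regions of 2 libraries are not replicates. Intervals in brackets are Wilson 95% intervals that cover counting error over regions only.

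SOX proteins are transcription factors that bend DNA through an HMG box and recognise a short core, CAAAG or CAATG after a pair of A or T bases. Group C members, to which vertebrate SOX4 belongs, are known for their part in neural and mesodermal development. A shared number does not place worm SOX-4 in that group, and its group was not examined here. Regulatory DNA away from promoters includes enhancers, which act on genes over a distance from introns and from the sequence between genes. In C. elegans most such elements lie close to the genes they act on, since the genome is compact. Regions that appear in ChIP-seq of many unrelated factors are also known in this species.

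The sequences below show what lay under the summits of the strongest regions, 50 bp to either side, on the listed strand of ce11 and as read from the RefSeq copy of that assembly. Only a selection of regions is shown, from chromosomes II to V, so stronger regions on I such as those at nas-30, ints-8 and K05C4.2 are left out. On either strand, capitals mark a SOX core or 1 of 4 words. These are GAGAGA and CACACA, which are short repeats, the word CGCACA, and GTTCGA, part of the internal promoter of tRNA genes. The intergenic set holds the strongest regions between genes on these chromosomes, named by the gene with the nearest 5′ end.
K12H4.5 (chrIII:8043909-8044009): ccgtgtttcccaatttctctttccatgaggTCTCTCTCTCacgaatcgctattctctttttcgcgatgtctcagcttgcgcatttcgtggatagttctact
fbxa-55 (chrIII:931559-931659): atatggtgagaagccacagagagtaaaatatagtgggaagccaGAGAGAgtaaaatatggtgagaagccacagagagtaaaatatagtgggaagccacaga
usp-4 (chrIV:6756597-6756697): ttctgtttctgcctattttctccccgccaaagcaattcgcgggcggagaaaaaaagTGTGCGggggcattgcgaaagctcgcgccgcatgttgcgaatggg
The intronic set is named by the gene that holds the intron, with the strongest region in a coding exon, in dos-3, after it.
M01F1.8 (chrIII:3499976-3500076): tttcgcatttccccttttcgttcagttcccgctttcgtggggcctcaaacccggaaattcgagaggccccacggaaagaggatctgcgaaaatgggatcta
tba-7 (chrIII:11371407-11371507): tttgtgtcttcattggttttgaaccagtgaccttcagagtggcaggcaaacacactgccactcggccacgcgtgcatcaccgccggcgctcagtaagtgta
srt-52 (chrV:53438-53538): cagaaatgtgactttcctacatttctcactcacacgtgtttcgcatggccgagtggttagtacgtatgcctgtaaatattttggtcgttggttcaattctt
dos-3 (chrIII:835926-836026): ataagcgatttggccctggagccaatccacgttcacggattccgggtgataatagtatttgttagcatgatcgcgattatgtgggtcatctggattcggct

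The strongest region lay between genes on III, 528 bp upstream of K12H4.5 and so just beyond the promoter window. Its pooled signal was 899.532, the eighth highest of the whole list, and its signals in the replicates were 506 and 391. The next was intergenic on I, 4965 bp upstream of nas-30, an astacin metalloprotease gene, with a pooled signal of 595 and replicate signals of 441 and 299. Both were high in both replicates, at rank 14 or better. The third lay in an intron of ints-8, which encodes a subunit of the Integrator complex, 6406 bp from the gene's 5′ end. Its pooled signal was 592 and its replicate signals were 346 and 248. Its summit was within 200 bp of rpr-1, the gene of the RNA of RNase P, a class of RNA gene that the position rule does not name. The region nearest to fbxa-55, an F-box gene, had 490 pooled and 324 and 213 in the replicates. In K05C4.2 the values were 459 pooled and 261 and 201, and in M01F1.8 430 pooled and 223 and 205. Both lay in introns and were alike in the replicates, as was the intronic region of the alpha-tubulin gene tba-7, with 419 pooled and 228 and 189. The region upstream of the ubiquitin protease gene usp-4 had 352 pooled and 186 and 166. Introns of the chemoreceptor gene srt-52 and of mdt-26, a Mediator subunit gene, had 344 pooled (213 and 133) and 339 pooled (190 and 149). These 10 regions ranked 143 or better in both replicate lists of 30000 regions each.

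Below these the pooled signals fell quickly. F08G2.5 had 324, the dehydrogenase gene dhs-8 306, D2096.7 291 and T28H10.2 291, all intergenic. The kinesin genes klp-6 and unc-104 had intronic regions of 270 and 254, and the other intronic regions among the 20 strongest lay in uba-5 (270), T22F3.2 (260), ppfr-1 (257) and Y57G11C.22 (250). The next in order was intergenic, 897 bp upstream of cbp-1, the gene of the CBP/p300 histone acetyltransferase, with 250 pooled and 108 and 141 in the replicates. The klp-6 summit was within 200 bp of R144.16 and of srpr-2.2, a gene for the RNA of the signal recognition particle. Non-coding RNA genes were as near to the summits named by F08G2.5 (F08G2.13), dhs-8 (K10H10.11 and K10H10.14) and ppfr-1 (F16A11.7 and anr-20). The unc-104 summit was within 200 bp of a pseudogene. Most regions were far weaker. The median pooled signal was 112.5, with quartiles at 105 and 130, and 450 of the 595 lay between 100 and 130, 118 between 130 and 200 and 27 over 200.

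Summits fell in introns for 264 regions (44.4%, 40.4 to 48.4), between genes for 244 (41.0%) and in exons for 87 (14.6%). Of the exonic summits, 58 were in coding sequence and 29 in untranslated exons. Among the weaker distal regions the shares were 41.9% intronic, 27.5% intergenic and 30.6% exonic. The chosen regions were therefore more often intergenic and less often in coding exons, 9.75% against 25.6%, and the intronic share was close in both groups. The median pooled signals were 113 for intronic, 114 for intergenic and 109 for exonic regions, with widely overlapping ranges. The 5 autosomes carried 102 to 137 regions each, in shares within 2 percentage points of those of the weaker regions.

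**Figure D1:**
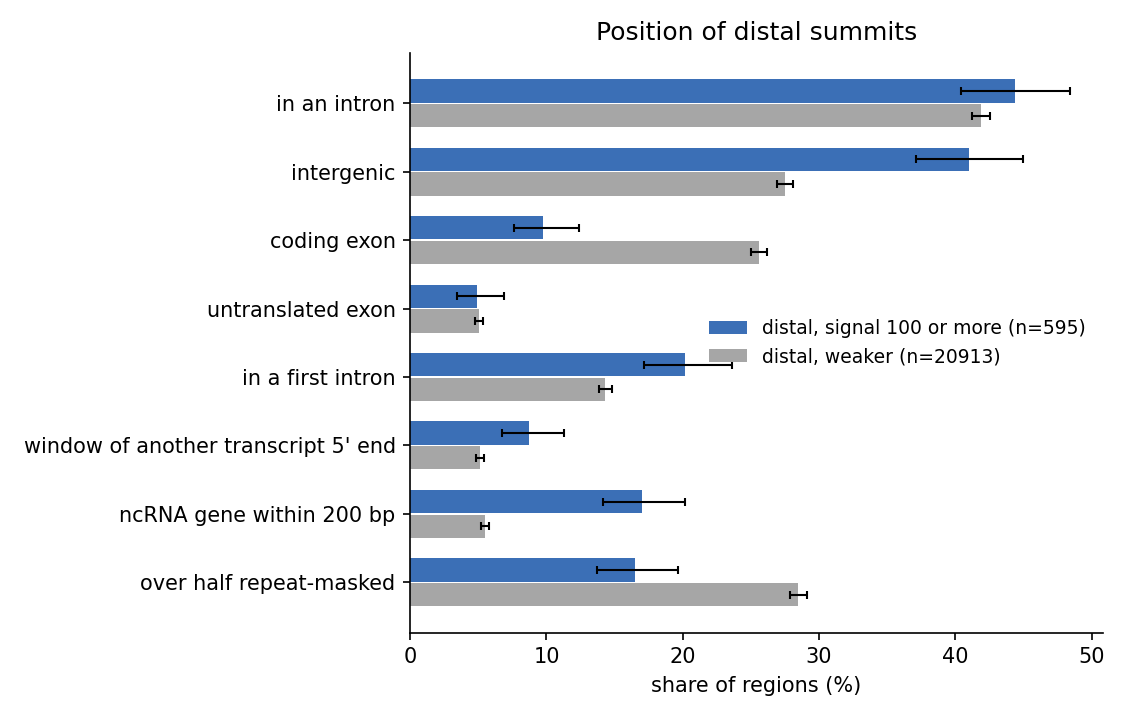
Share of summits in each position, in percent of regions, for the 595 distal regions with a signal of 100 or more and the 20913 weaker ones, with Wilson 95% intervals as error bars. Intergenic summits made up 41.0% against 27.5%, coding exons 9.75% against 25.6%, and summits with an unclassified ncRNA gene within 200 bp 16.97% against 5.48%.

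Intronic summits lay in first introns in 120 of 264 cases (45.5%, 39.6 to 51.5), against 34.2% of the weaker intronic summits. First introns of C. elegans genes are known to be long and to hold regulatory elements. The introns over all 264 summits had a median length of 1818 bp against 1046 bp for the weaker summits. Long introns have more room for a summit, and the part of length in the first-intron share was not tested. Examples were K05C4.2, where the summit lay 339 bp from the gene's 5′ end in an intron of 569 bp, tba-7 at 331 bp and mdt-26 at 694 bp. These lie close to the promoter window. Others were deep in the gene, such as unc-104, which carries synaptic vesicle precursors along axons, with its summit in intron 4 and 6657 bp from the 5′ end.

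Many genes have transcripts that start inside the gene, which the rule's outermost 5′ end does not show. In 52 regions (8.74%, 6.73 to 11.3), 37 intronic and 15 exonic, the summit lay in the same window around the 5′ end of another annotated transcript, against 5.12% of the weaker regions. They included K05C4.2, uba-5, an E1-type activating enzyme gene, T22F3.2, the Gq alpha gene egl-30 and 2 of the 4 regions at unc-62. For these regions the term distal holds for the gene's outermost 5′ end and not for every transcript.

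Intergenic summits lay upstream of the nearest 5′ end in 204 of 244 cases (83.6%, 78.4 to 87.7), against 74.8% of the weaker intergenic summits. Divergent gene pairs, whose 5′ ends face each other, flanked 92 of them (37.7% against 31.3%). Convergent pairs, whose 3′ ends face, flanked 16 (6.56% against 11.3%). The rest lay between genes in tandem. Over all 595 regions the median distance to the nearest 5′ end was 2118 bp, close to the 2048 bp of the weaker regions, and 125 regions (21.01% against 18.6%) were over 5000 bp away.

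The strongest exonic region lay in a coding exon of dos-3, whose product belongs to a family of Notch ligand-like proteins, 2994 bp from the 5′ end of zip-2. Its pooled signal was 241 and its replicate signals were 134 and 124. The other 9 strongest exonic summits had pooled signals of 133 to 187 and lay in pals-26, F41F3.3, egl-30, Y43F8B.2, B0379.6, zig-11, the collagen genes col-105 and col-141, and gei-4. The summit in pals-26 was also within 200 bp of srpr-1.1, a gene for the RNA of the signal recognition particle. In F41F3.3, B0379.6 and gei-4 the summits were 199, 132 and 109 bp from the gene's 5′ end, just beyond the promoter window. All 10 reached the smallest signal of the thresholded list, and 9 were strong in both replicates as defined next, zig-11 being the exception.

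Each replicate had its own list of 30000 regions, and a region was counted as strong in both where it overlapped by 1 bp or more a region among the 1507 strongest of each. Of the 595 regions, 186 were strong in both (31.3%, 27.7 to 35.1), where 3.09% of all pooled regions were, a comparison that the choice by pooled signal fixes. Replicate 1 had 381 of them among its strongest, replicate 2 had 323, and 77 were among the strongest of neither. In replicate 1 the signals ranged from 29.7 to 506 with a median of 65.8, and in replicate 2 from 17.9 to 391 with a median of 52.1. The pooled value was close to the sum of the other two, which came to a median of 100.05% of it (quartiles 97.6 and 103.1). A region near the minimum could thus enter through a high value in either replicate. Over the 587 regions with a value in both lists, Spearman's rho between the replicates was 0.05. For the 340 promoter regions with values in both it was 0.52. Both figures describe values that were chosen on their sum, and the promoter regions held more high signals.

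**Figure D2:**
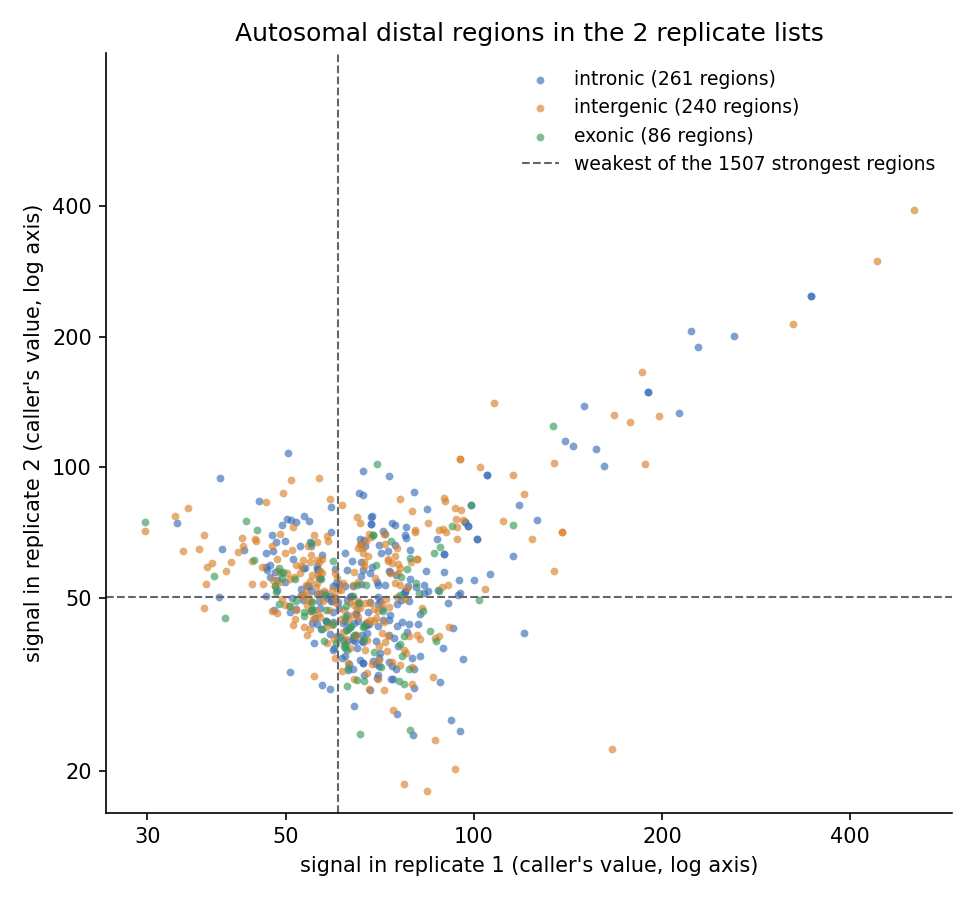
Signal in replicate 1 against replicate 2 for the 587 distal regions with a value in both lists, on log axes, coloured by position class. Dashed lines mark the weakest of the 1507 strongest regions of each replicate, 60.7 and 50.3. The strongest regions lie along the diagonal, and the rest form a cloud around the crossing of the lines.

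The share strong in both rose with the pooled signal, which is largely fixed by how these values are related, since the pooled value is close to the sum of the replicate signals. It was 13.6% of the 450 regions between 100 and 130, 83.9% of the 118 between 130 and 200 and 26 of the 27 over 200. Promoter regions of the same signal had 24 of 171, 99 of 110 and 65 of 65. At equal pooled signal the intervals of the 2 kinds of region overlapped, while over all signals the shares were 31.3% and 54.3%. By position, 34.1% of intronic, 30.7% of intergenic and 24.1% of exonic regions were strong in both, again with overlapping intervals.

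**Figure D3:**
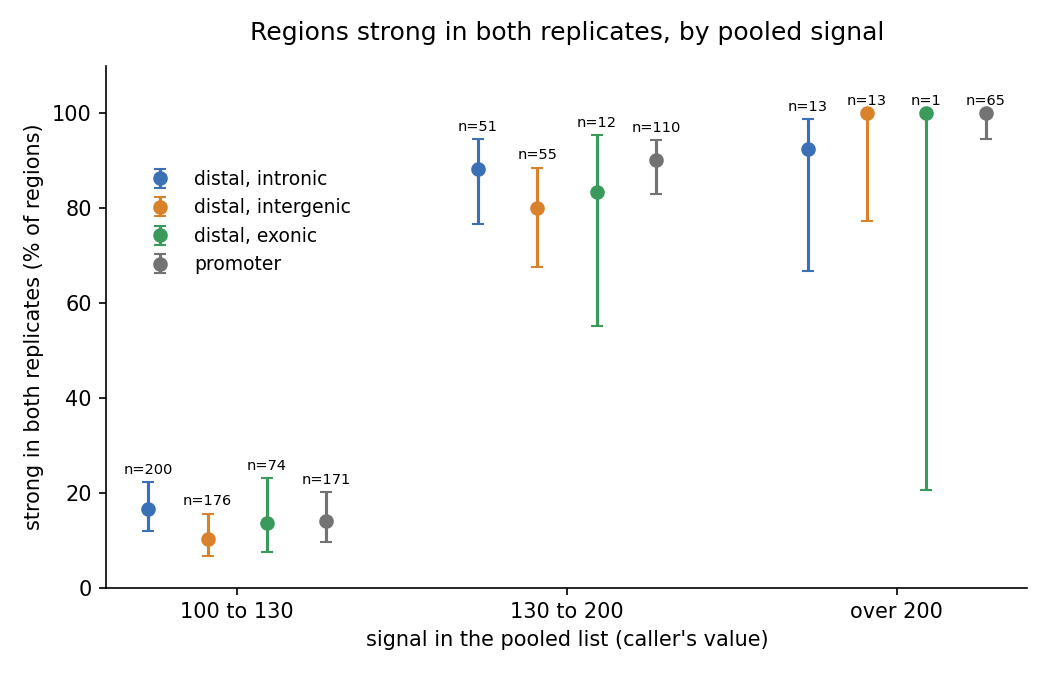
Share of regions strong in both replicates, in percent, by pooled signal, for intronic, intergenic and exonic distal regions and for promoter regions, with Wilson 95% intervals and the number of regions. Between 100 and 130 all shares lie between 10.2% and 16.5%, and from 130 on the lowest is 44 of 55 regions.

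Overlap with the authors' thresholded list of 668 regions was found for 155 regions (26.1%, 22.7 to 29.7), against 2.81% of all pooled regions. That list began at a pooled signal of 129.869, and 145 regions reached it. The other 10 were weaker and touched a listed neighbour. The overlap therefore restates the pooled signal. By class it was 26.9% of intronic, 28.3% of intergenic and 17.2% of exonic regions.

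For some regions the replicates were far apart. The largest difference in rank was intergenic, upstream of M02B1.3, with a signal of 84.2 and rank 494 in replicate 1 and of 17.9 and rank 29985 in replicate 2. The regions nearest to Y71G12B.27 and zoo-1 had ranks of 629 and 398 in replicate 1 and of 28195 and 24754 in replicate 2. The region nearest to F52G2.3 had a pooled signal of 171 and overlaps the thresholded list, with signals of 166 in replicate 1 and 22.5 in replicate 2. The exonic region in the collagen gene col-50 went the other way, with 29.7 in replicate 1 and 74.8 in replicate 2. Another 8 regions had no region in the list of replicate 2, and none lacked one in that of replicate 1. The strongest of the 8, in an intron of Y57G11C.22, had 250 pooled and 115 in replicate 1, and replicate 2 listed no summit within 2000 bp of it. Of these 8, 5 were on chromosome IV, at Y57G11C.22, eps-8, tag-273, sec-61.A and unc-82. The other 3 were nearest to srx-113, T23F11.4 and C30F12.2. Pooled signals of the 8 were 110 to 250 and their replicate 1 signals 57.2 to 115. Where both replicates had a value, the pooled signal was close to their sum. A missing entry is therefore not read as a low signal in replicate 2.

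Summits were rich in G and C. The median GC content within 50 bp of the summit was 49.5%, against 37.6% in flanks centred 300 bp to either side and 41.6% at the summits of the weaker distal regions. It was 49.5% for intronic, 49.5% for intergenic and 50.5% for exonic regions, although exons and introns of this genome differ in composition, with weaker summits at 45.5% in exons and 39.6% in introns. The rise was broader than in promoter regions. In windows of 25 bp to either side, mean GC was 50.1% at distal and 49.8% at promoter summits. At 100 bp to the left and right it was still 45.2% and 45.4% in the distal regions, but 36.6% on both sides in the promoter regions.

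**Figure D4:**
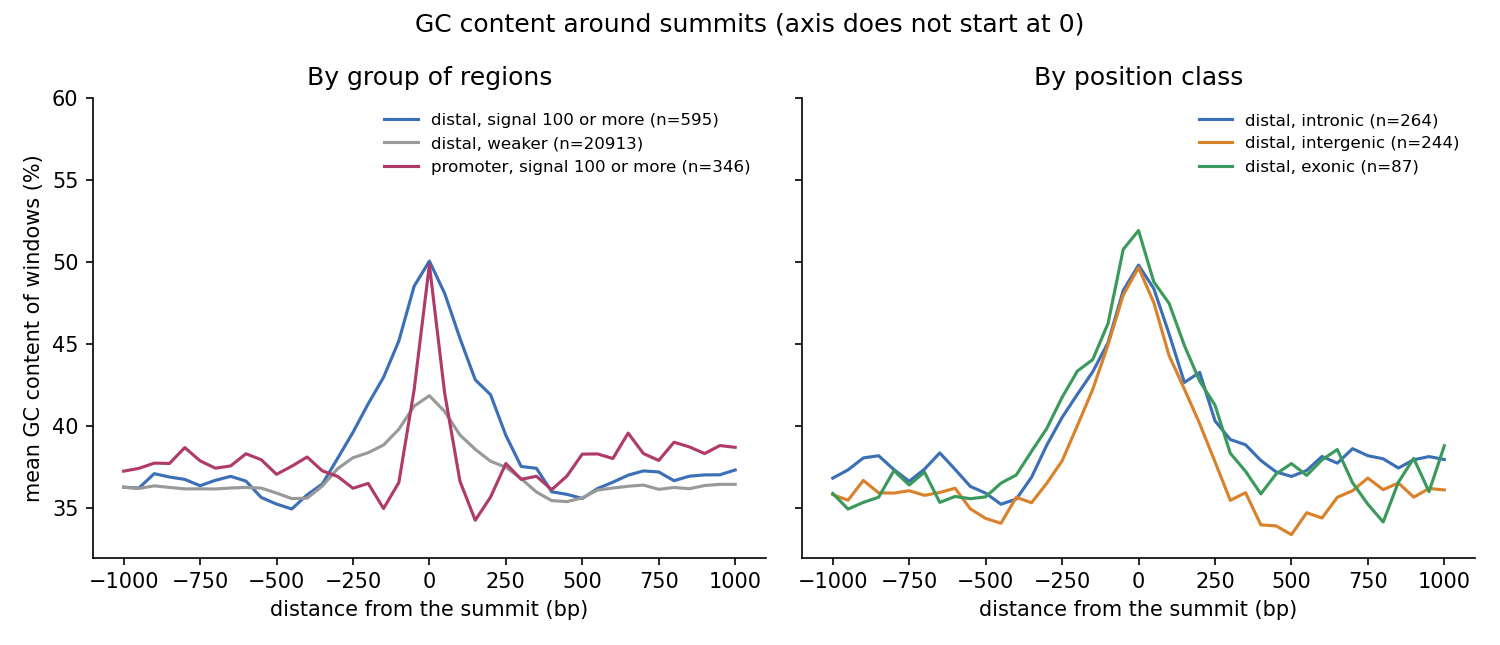
Mean GC content in windows of 25 bp to either side of each point, in percent, against distance from the summit in bp, for distal, weaker distal and promoter regions (left) and for the position classes of the distal regions (right). Distal and promoter summits reach 50.1% and 49.8%, and at 100 bp from the summit distal regions stay above 45% while promoter regions are at 36.6%.

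Of the 2080 words of 6 bases, each counted with its reverse complement, the 5 with the largest excess at summits over flanks were the GA repeats GAGAGA (22.5% and 9.58%) and AGAGAG (19.5% and 7.90%), the CA repeats ACACAC (15.5% and 4.96%) and CACACA, and the word CGCCGC. The words of each repeat overlap each other. GAGAGA stood within 50 bp of 22.5% of summits (19.3 to 26.0), against 9.58% of flanks, 8.26% of weaker summits and 15.3% of promoter summits. The share was alike in the 185 X regions outside promoters at the same signal minimum, 21.1% (15.8 to 27.5), so the word is not particular to the autosomes. In windows of the same length at the middle of all 19973 promoters GAGAGA stood in 7.47%. It was found in 30.3% of intergenic (24.9 to 36.4), 19.3% of intronic and 10.3% of exonic regions, against 12%, 7.22% and 6.37% of weaker regions of the same class. Among regions with 45 to 55% GC the shares were 26.6% of 248 chosen and 10.7% of 5956 weaker regions. The part of base composition in the difference over all regions was not tested.

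The 5 words with the largest deficit at summits were all rich in A and T. The first, AAAAAT, stood at 19% of summits and in 44.1% of flanks. For AAAATT the shares were 16.1% and 40.2%, and for AAAAAA 19.7% and 41.2%. CACACA stood at 14.8% of summits against 5.88% of flanks and 5.72% of weaker summits. CGCCGC stood at 11.9% against 3.19% and 4.24%. The CACACA share of 25.4% in 185 X regions chosen by the same rules had an interval of 19.7 to 32.1, against 12.2 to 17.9 on the autosomes. The X regions were stronger, with a median pooled signal of 118.9, and the autosomal share itself moved with signal. It was 12.4% at 100 to 130, 26.3% (31 of 118, 19.2 to 34.9) at 130 to 200 and 1 of 27 over 200. No difference between X and autosomes is read from these shares.

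CGCACA stood within 50 bp of 44 of the 595 summits (7.39%, 5.55 to 9.78). That compared with 2.18% of flanks and 3.02% of weaker summits, and with 18.2% of promoter summits and 17.8% of X regions outside promoters. The share moved with pooled signal, and the promoter and X regions were stronger. At signals of 100 to 130 it was 5.11% of distal (3.43 to 7.55) and 11.1% of promoter regions (7.23 to 16.7). At 130 to 200 it was 14.4% (9.19 to 21.9) and 20% (13.6 to 28.4), and over 200 it was 4 of 27 and 22 of 65. The distal share was the lower in each band, with intervals that overlap in each. Among regions overlapping the thresholded list it was 14.8% of 155, and among the others 4.77% of 440. The region nearest to usp-4, shown above, was the strongest with the word. Among the next were regions in an intron of T22F3.2 and upstream of cbp-1, with the word off centre in both.
T22F3.2 (chrV:3587773-3587873): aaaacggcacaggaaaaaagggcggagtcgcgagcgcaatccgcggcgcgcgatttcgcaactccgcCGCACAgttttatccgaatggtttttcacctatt
cbp-1 (chrIII:9765562-9765662): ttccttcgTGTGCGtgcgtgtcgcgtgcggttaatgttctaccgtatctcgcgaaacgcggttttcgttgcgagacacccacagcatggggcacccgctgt

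The SOX core stood within 50 bp of 51 summits (8.57%, 6.58 to 11.1). The share was 12.02% in flanks, 10.9% at weaker summits, 8.38% at promoter summits and 16.6% in the middle of all promoters. At 45 to 55% GC it was 9.68% of the chosen and 8.80% of the weaker regions, with overlapping intervals. Intronic regions held it in 5.68%, intergenic in 10.7% and exonic in 11.5%. The core is rich in A and T, which summits are not, and these letters are a description of the sequence and not a bound site. The 2 strongest regions that held it are shown with an intronic region that held GAGAGA, in mdt-26. All 3 were chosen for display after their values were seen.
D2096.7 (chrIV:8375551-8375651): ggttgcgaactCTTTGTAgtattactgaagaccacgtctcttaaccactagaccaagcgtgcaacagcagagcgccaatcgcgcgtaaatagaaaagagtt
mvk-1 (chrIII:6133607-6133707): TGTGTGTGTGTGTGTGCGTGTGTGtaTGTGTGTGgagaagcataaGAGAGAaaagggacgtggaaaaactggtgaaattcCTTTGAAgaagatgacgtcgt
mdt-26 (chrII:5661825-5661925): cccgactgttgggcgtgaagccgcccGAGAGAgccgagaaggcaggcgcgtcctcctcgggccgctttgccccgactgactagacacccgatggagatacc

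Shares were also taken for other words known from transcription factor sites. GATAA, read by GATA factors, stood at 10.1% of summits and 15.8% of weaker summits. TAATTA, common in homeodomain sites, stood at 1.85% and 2.98%, and CAGCTG, an E-box, at 3.36% and 2.83%. GGGCGG, rich in G and C, was more frequent, at 9.08% (7.02 to 11.7) and 3.89% (3.64 to 4.16). Its share was higher at promoter summits, 16.2% (12.7 to 20.4), and was 5.41% (2.96 to 9.66) in X regions outside promoters. GTTCGA stood at 3.19% of summits and 3.35% of weaker summits. By signal its share was 2.44% (1.37 to 4.32) at 100 to 130 and 4.24% (1.82 to 9.54) at 130 to 200. Among the 20 strongest regions it stood at those of dhs-8, unc-104 and Y57G11C.22. The letters of both internal boxes of tRNA genes, GCNNAGTNG and GTTCNA on either strand, were found together in 6 regions (1.01%, 0.463 to 2.18) against 0.555% of weaker ones. These 2 words were chosen after the sequences were seen. The 2 strongest of the 6 were the intronic regions of tba-7 and srt-52, shown above. By the position rule neither is within 200 bp of an annotated tRNA gene, while the tba-7 summit is within 200 bp of the ncRNA genes T28D6.10, T28D6.13 and T28D6.15.

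Genes annotated only as ncRNA, which the position rule does not remove, lay within 200 bp of 101 summits (16.97%, 14.2 to 20.2), against 5.48% of weaker summits and 10.1% of promoter summits. In the 185 X regions outside promoters the share was higher, 33.5% (27.1 to 40.6). The 101 autosomal regions were stronger than the rest of the 595. Of the 101, 43.6% were strong in both replicates and 40.6% overlapped the thresholded list, against 28.7% and 23.1% of the other 494. The share with such a gene was 14.2% at signals of 100 to 130, 25.4% at 130 to 200 and 25.9% over 200. Named genes among them were rpr-1 and srpr-1.1, srpr-1.2, srpr-2.1, srpr-2.2 and srpr-3, whose RNA guides secreted proteins to the membrane. RNA polymerase III is known to transcribe the RNAs of RNase P and of the signal recognition particle, as it does tRNAs. The part of these genes in the signal was not tested. Long intergenic RNA genes were near 4 summits, piRNA genes near 2, antisense RNA genes near 2 and pseudogenes near 11.

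Repeated sequence was part of the set. By alignment of 100 bp to either side of the summit, 68 regions (11.4%, 9.12 to 14.2) matched another at 80% identity or more over at least 50 bp, and among promoter regions 6.65% did (4.47 to 9.78). A larger set offers more partners for a match, and the 595 and 346 regions were not matched in number, so the 2 shares are not compared. Among the 595 the share was 14.8% of intronic, 10.7% of intergenic and 3.45% of exonic regions. How reads with several matches were placed is not stated in the labels. The 68 regions formed 15 families of similar sequence, and these differed in strength.

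The largest family held 15 regions on 4 autosomes, with pooled signals of 100.7 to 128 and a median of 95.05% of bases marked as repeat in the assembly. None of the 15 was strong in both replicates, and 13.6% of all regions at such signals were. A family of 8 was led by the M01F1.8 region shown above, at 430, and included 2 neighbouring regions upstream of eel-1, a ubiquitin ligase gene, with 197 and 175 that share 1 region in each replicate list. In this family 5 of 8 were strong in both. A family of 5, at srpr-1.2, srpr-2.1, srpr-2.2 and srpr-3, was led by the intronic region of klp-6. The 5 had pooled signals of 116 to 270, and all 5 were strong in both and overlapped the thresholded list. Of these, the 2 at srpr-1.2 share 1 region in each replicate list. The only exonic family was a pair of collagen gene regions, led by sqt-3 at 128.

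A family of 3 held 2 of the 4 strongest of all 595 regions. They lay 4965 bp upstream of nas-30, on I, with 595, and 4478 bp downstream of the 5′ end of fbxa-55, on III, with 490, and the third was nearest to ddl-3, on II, with 104.4. All were intergenic, over 90% repeat-marked and strong in both replicates. Replicate signals were 441 and 299 at nas-30, 324 and 213 at fbxa-55, and 66.3 and 63.3 at ddl-3. Their sequence repeats a unit that holds CAGAGAG. It stood 3 times on the listed strand in the fbxa-55 window above, 2 times on the other strand at nas-30 and 4 times on the other strand at ddl-3, shown here for comparison.
ddl-3 (chrII:14339036-14339136): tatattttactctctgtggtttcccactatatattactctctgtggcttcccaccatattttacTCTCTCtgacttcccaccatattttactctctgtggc
All 3 windows also hold GAGAGA. Of all 595 regions, 98 (16.5%) were over 50% repeat-marked, fewer than the 28.5% of the weaker regions.

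**Figure D5:**
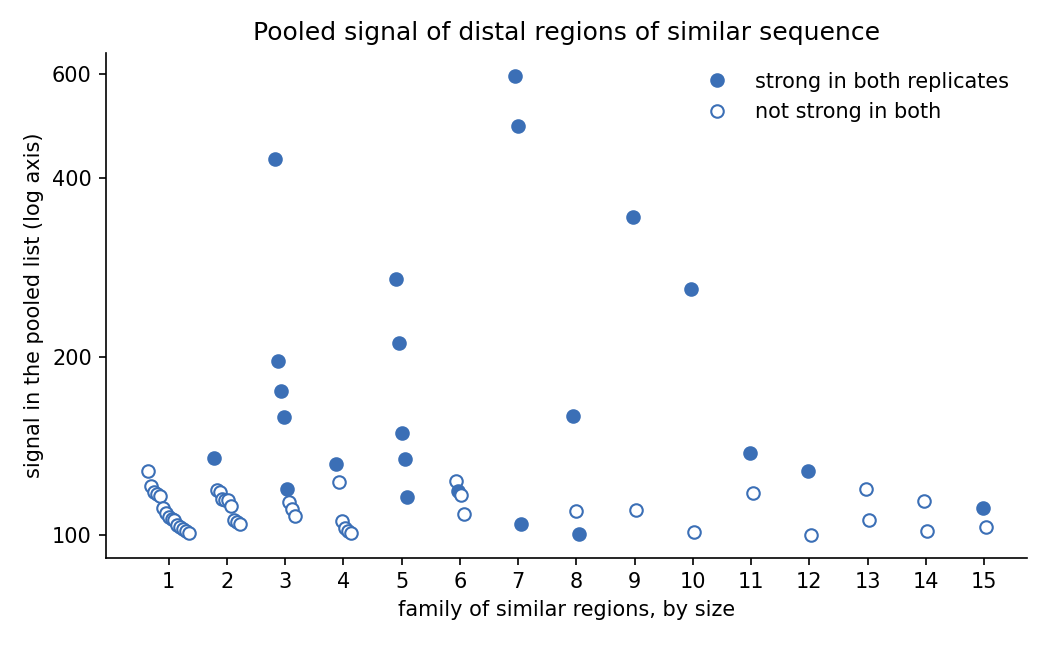
Pooled signal, on a log axis, of the 68 distal regions in 15 families of similar sequence, numbered by size. Filled points were strong in both replicates. None of the 15 regions of family 1 was, against all 5 of family 5 and all 3 of family 7.

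Some genes carried several regions. By host gene or nearest 5′ end, 590 genes had at least 1 region and 17 had 3 or more, a count that includes nested genes and regions shared by 2 genes. The largest number, 6, fell to lin-42, the worm homologue of Period that times the larval molts, on chromosome II. All 6 were intronic with pooled signals of 110 to 179, spread over 20488 bp, and 2 were strong in both replicates. In 3 of them the shortest intron over the summit belonged to F53A10.2, which overlaps lin-42 and has those same 3 regions. Next came egl-27, a chromatin regulator, pqn-41 and unc-62, with 4 each. The 4 at egl-27 had pooled signals of 103 to 110 and none was strong in both. The 4 at pqn-41 had 105 to 180 within 4054 bp, and 2 of them share 1 region in each replicate list.

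The regions at unc-62, which encodes a homeodomain protein of the Meis family, spanned 12122 bp, from -5863 bp to 6259 bp relative to its 5′ end. Their pooled signals were 130, 109, 105 and 100, in replicate 1 65.7, 81.9, 63.7 and 67.3, and in replicate 2 66.6, 45.99, 60.8 and 33.6. The first and the third were strong in both. Genes with 3 regions included the GATA factor gene egl-18, the zinc-finger homeodomain gene zfh-2, the kinase gene mbk-2, the calmodulin gene cmd-1, the G protein beta gene gpb-1, ppfr-1, ztf-6, miz-1, F54F2.6 and Y54G2A.26. The last 2, lsy-22 and F27D4.12, share the same 3. Along the chromosomes, 44 pairs of neighbours were within 2000 bp of each other and 13 within 500 bp, while the median gap was 69538 bp. In each replicate list, 26 regions shared their region with another of the 595, so such neighbours are not separate observations.

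Gene lists for tissues of the embryo were read against the 590 of 17138 autosomal protein-coding genes (3.44%) that hosted or were nearest to a region. Of 17 autosomal pan-neuronal genes, 4 had one. They were unc-104 (254), the macoilin gene maco-1 (105), the syntaxin gene unc-64 (103.6) and egl-3 (100), a neuropeptide-processing protease gene. Outside unc-104, which was strong in both replicates at 140 and 115, these regions were near the minimum and not strong in both. The unc-104 summit had GTTCGA within 50 bp and a pseudogene within 200 bp, and their part in its signal was not tested. Of 23 neural transcription factor genes, 4 had 8 regions, namely unc-62, the zinc-finger homeodomain gene zag-1 (131 and 106), the ETS gene ast-1 (126) and the homeodomain gene unc-39 (108). The stronger zag-1 region, that of ast-1 and 2 at unc-62 were strong in both replicates. The weaker zag-1 region, at ranks 1240 and 3455, and that of unc-39, at 6394 and 615, were not. Only the stronger zag-1 region overlapped the thresholded list. Neural transcription factor genes tend to have long introns and wide intergenic spaces, which give more room for a nearest summit. The part of gene length in these counts was not tested.

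The other lists are given in the same way, and no difference between lists was tested. Of 13 epidermal genes, egl-18 had 3 regions (131, 111 and 107) and the cuticle collagen gene sqt-3 had 1 in an exon (128). Of 16 body wall muscle genes, unc-22, the twitchin gene, had 1 (102). Of 14 early fate and Hox genes, the posterior Hox gene nob-1 had 2 in introns (114.5 and 102), and of 10 cell cycle genes cki-1, a CDK inhibitor gene, had 1 (109). None was found at 6 glial, 12 intestinal, 5 pharyngeal and 20 germline genes or at the 1 autosomal SOX family gene. At 3.44% of all genes, fewer than 1 gene would be found in each of these lists, so their counts of 0 say little.

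The tagged gene and the marker gene of the strain were also looked up. On X, where no region of this set can lie, sox-4 had 5 pooled regions within 20 kb, the strongest at 197. On III, unc-119 had 26 pooled regions within 20 kb, none at 100 or more and the strongest at 75.3, and the nearest of the 595 was 35257 bp away.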

How the data were processed

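Region lists on ce11 came from anti-GFP ChIP-seq of 2 biological replicates of 1 group, numbered by the labels. Per the descriptions deposited with each library, peaks and background were called against a control alignment on each replicate and on both pooled, and a thresholded list was made by the irreproducible discovery rate. The signal values that the authors deposited are the strengths the peak caller gave each region against that control. They are not scaled from list to list. Ranks were taken inside one list, and signals of different lists set side by side are a description only. Over the 587 regions with a value in both replicates, the median ratio of replicate 1 to replicate 2 signal was 1.27. For the aligner, the caller, their versions and the threshold, nothing is stated in the labels. Depth is unknown.

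Annotation came from Ensembl (release 115, WBcel235, which is ce11), and sequence from RefSeq's copy. Sequences are shown from chromosomes II to V only. Lists on ce10 were not used. Every listed region ended within its chromosome. Coordinates count from 1. A summit was called exonic before intronic before intergenic, by protein-coding gene models, and the shortest intron over it was taken. A word counted once per window, whichever strand held it, at summits (50 bp to either side), in flanks 300 bp away and in the other groups. Similar sequences were found with blastn 2.17.0 (e-value limit 1e-05, low-complexity filter on, pairs with summits within 200 bp not counted). Shares carry Wilson 95% intervals from scipy 1.17.1. Scripts ran in Python 3.11.15, and tables and plots were made by numpy 2.4.6, pandas 2.3.3 and matplotlib 3.10.9. With 1 group of 2 samples no test over samples was possible, and none was made over regions. Word search, position rule and overlap were checked on simulated data.

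The members, gene lists and words were chosen with earlier results of these data known. Genes named were the host and nearest gene of the 20 strongest regions, of the 5 strongest intronic and intergenic and the 10 strongest exonic ones, genes with 3 or more regions, up to 4 hits of each list, the 5 largest rank differences, and sox-4 and unc-119. Other genes, the tRNA boxes, the repeat unit and the families described were picked with their values in view. Alternatives tried were another signal minimum, promoter window, RNA gene distance or class of RNA gene, whole regions in place of summits, other sequence windows, each replicate alone, other definitions of agreement and similarity, and, chosen after seeing the data, the windows of all transcripts and all settings of GAGAGA.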

Additional observations from a re-analysis of the deposited data

How the results depend on the processing

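Of 95 alternatives to the values above, 67 stayed within the interval, the replicate spread or 1.5 times the count, and 28 moved. A signal minimum of 130 left 145 regions, and 200 left 27. At these minima the share strong in both replicates was 86.2% and 96.3%, that with CGCACA 14.5% and 14.8%, with a SOX core 6.21% and 3.70%, with GAGAGA 26.2% and 29.6%, and with a similar region 6.90% and 14.8%. At 200 the median distance to a 5′ end was 1158 bp. The share strong in both fell to 11.9% with as many strongest regions as the thresholded list, and to 23.7% with replicate summits within 100 bp. With the promoter window from 1000 bp upstream to 200 bp downstream the intronic share was 50.3% and the median distance 2657 bp, and with whole regions outside promoters it was 2444 bp. Windows of 25 and 100 bp gave CGCACA in 3.19% and 12.1%, a SOX core in 4.03% and 15.3%, and GAGAGA in 13.1% and 35.1%, as their lengths differ. Similarity at 90% over 100 bp left 1.85%.

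With each replicate alone, the 1507 strongest regions gave 615 to 646 distal regions, an intronic share of 39.02 to 47.5%, a median GC of 46.5 to 49.5%, GAGAGA in 18.9 to 21.95%, CGCACA in 5.57 to 5.85%, a SOX core in 7.80 to 9.60%, a median distance of 2068 to 2232.5 bp and similarity in 11.2 to 13.2%. Leaving out windows of every transcript, chosen after seeing the data, left 543 regions. No paired analysis was possible because there is 1 group. Without counts or a control list, neither sampling error per region nor background can be given.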
